A study of Mus musculus with 4 samples.

Results

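The S100 proteins are a family of small calcium sensors, and 10 of their genes are described here in lenses with a conditional deletion of Celf1, which encodes an RNA-binding protein, and in Control lenses. The genes are S100a1, S100a3, S100a4, S100a6, S100a8, S100a10, S100a11, S100a13, S100a16 and S100b. All probes carrying one of these symbols were taken, which gave 1 probe for each gene, or 10 of the 45263 probes used. S100a1 was selected on its log2 fold change, one of the largest rises in the cKO lenses on these arrays, so its values are a description and no test is given for it. The other 9 genes were taken by family name. RNA of single lenses, taken at postnatal day 6, was hybridised to Illumina MouseWG-6 v2.0 arrays, where each probe is read on many beads. There were 2 Celf1 cKO lenses (A and B) and 2 Control lenses (A and B). The cKO mice carried a lacZ knock-in allele of Celf1, which is null in the germ line, together with a floxed allele whose exon 5 is removed by Cre from the Pax6GFPCre transgene. This transgene acts in the lens lineage from the placode stage. In Control mice the same lacZ knock-in allele was paired with a normal Celf1 allele, so both groups had the knock-in. The labels do not place the Cre transgene in the Control mice. All animals were of mixed C57BL/6 and FVB background. Nothing in the labels states whether the lenses of a group came from separate litters, and p-values measure the spread between these lenses alone.

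An S100 protein is built from a pair of EF-hand calcium-binding loops and usually works as a dimer. Binding of calcium opens a hydrophobic surface that docks onto partner proteins, among them annexins, cytoskeletal proteins and ion pumps. Some members are also secreted and bind the receptor encoded by Ager. Most mouse S100 genes lie in a cluster on chromosome 3, whereas S100b lies on chromosome 10. The lens depends on tight control of calcium, since high calcium activates proteases that act on crystallins and the lens cytoskeleton. Celf1 binds RNA and controls splicing, stability and translation of its target transcripts.

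The start sites of the elevated S100 genes are shown first, because the promoter windows of S100a1 and S100a13, neighbours that both read higher in the cKO lenses, overlap. In RefSeq (GRCm38.p6), S100a1 and S100a13 lie on opposite strands, and the start sites used for their windows are 105 bases apart and point away from each other. The RefSeq span of S100a13 begins farther upstream than this start site, at chr3:90514233-90524581, and shares 98 bases with the span of S100a1 (chr3:90511034-90514330). Their windows, each running from 250 bases before to 50 bases after a start site, share 204 bases. Of all 32851 windows in the RefSeq table, 7.7% have a divergent start site of another gene within 250 bases upstream. The S100a1 window lies on the minus strand at chr3:90514281-90514580, and capitals mark the 104 bases between the start sites of S100a1 and S100a13. The S100a11 window (plus strand, chr3:93520246-93520545) and both S100a16 windows (plus strand, chr3:90537004-90537303 and chr3:90540896-90541195) follow, as these genes were elevated too. In these 3, capitals mark matches to the motifs named after the sequences.
S100a1: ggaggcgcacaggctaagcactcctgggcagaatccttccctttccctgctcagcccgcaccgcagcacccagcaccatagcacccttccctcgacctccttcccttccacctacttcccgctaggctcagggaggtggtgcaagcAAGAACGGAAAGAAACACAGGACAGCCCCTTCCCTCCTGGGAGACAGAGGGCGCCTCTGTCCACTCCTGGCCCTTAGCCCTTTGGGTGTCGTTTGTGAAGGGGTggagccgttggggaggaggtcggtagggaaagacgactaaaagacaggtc
S100a11: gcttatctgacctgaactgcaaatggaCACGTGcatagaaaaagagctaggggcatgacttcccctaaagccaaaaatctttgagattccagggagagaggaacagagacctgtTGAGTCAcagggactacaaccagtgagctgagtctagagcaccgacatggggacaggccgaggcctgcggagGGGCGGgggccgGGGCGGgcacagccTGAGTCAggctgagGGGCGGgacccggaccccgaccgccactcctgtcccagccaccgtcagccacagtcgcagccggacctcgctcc
S100a16, first window: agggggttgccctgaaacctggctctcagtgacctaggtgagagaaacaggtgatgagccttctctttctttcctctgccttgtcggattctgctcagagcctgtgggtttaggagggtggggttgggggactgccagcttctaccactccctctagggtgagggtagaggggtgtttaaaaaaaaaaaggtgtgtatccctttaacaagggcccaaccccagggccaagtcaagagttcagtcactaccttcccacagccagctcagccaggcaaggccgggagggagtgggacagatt
S100a16, second window: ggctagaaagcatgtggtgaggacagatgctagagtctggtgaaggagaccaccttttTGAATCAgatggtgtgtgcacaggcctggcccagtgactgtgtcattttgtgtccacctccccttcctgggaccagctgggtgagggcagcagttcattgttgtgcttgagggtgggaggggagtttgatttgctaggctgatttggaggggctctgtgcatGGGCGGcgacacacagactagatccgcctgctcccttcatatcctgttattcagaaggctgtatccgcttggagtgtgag

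The motifs were searched on both strands, and none of them overlapped another in these windows. TATAAA, the core of a TATA box, was held by 13.6% of all windows. CCAAT was held by 37.4%, the GC-box core GGGCGG by 35.7%, the E-box CACGTG by 7.15% and the AP-1 site TGANTCA by 7.81%. Neither the S100a1 window nor the S100a13 window held any of these motifs. The S100a11 window held GGGCGG 3 times, TGANTCA 2 times and CACGTG 1 time, and the second S100a16 window held GGGCGG and TGANTCA once each. The windows of S100a1, S100a13 and S100a11 had a GC content of 61.0%, 59.3% and 61.7%, above the median of 52.7% over all windows. They held 11, 14 and 15 CpG dinucleotides, and the median over all windows was 7. The S100a16 windows, at 55.0% and 54.3% GC with 2 and 4 CpG dinucleotides, had fewer CpG than that median. Counted from the start site, TATAAA stood at -31 in the S100a4 window, at -30 in that of S100a8 and at -52 in 1 of the S100a3 windows, and CACGTG was also held by the S100a6 window. In all, 13 windows belonged to 9 of the 10 genes, and no window for S100a10 was given. A match describes the letters of a window and does not show that a factor binds there.

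S100a1 encodes a member best known in heart and skeletal muscle, where it binds the calcium pump of the sarcoplasmic reticulum and the ryanodine receptor. Its probe read an unnormalized intensity of 406 in cKO A and 860.7 in cKO B, against 77.4 in Control A and 53 in Control B. Both cKO lenses were thus well above both Control lenses, and the cKO lenses also differed from each other. After background correction and quantile normalization the log2 signal was 8.19 and 9.22 in the cKO lenses and 5.74 and 5.09 in the Control lenses. The difference was 3.29 ± 0.35 on the log2 scale (SE, n = 2 lenses a group), or 9.79-fold. The cKO lens with the lower log2 signal stood 2.45 above the Control lens with the higher one. The probe was above background (detection p under 0.05) on all 4 arrays, with the least certain value in Control B, at a detection p of 0.01175. By log2 fold change S100a1 was ranked 4 among 11516 tested genes. Just above it stood the cell cycle inhibitor Cdkn1a (4.14), the peptide hormone Cck (3.47) and the glutathione-degrading enzyme Chac1 (3.43), and just below it Fabp3 (3.27), Hspb8 (3.24) and Crhbp (3.15). The size of the rise depended on the array: it was 2.71 without cKO B and at most 3.76 when any other lens was left out.

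The S100a1 probe matches the minus strand at chr3:90514214-90514263 of GRCm38.p6, from base 68 of the transcript. The last 31 of its 50 bases in chromosome order lie inside the span of S100a13, which runs on the opposite strand. How far the S100a1 probe could take up signal from S100a13 was not tested.

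**Figure D1:**
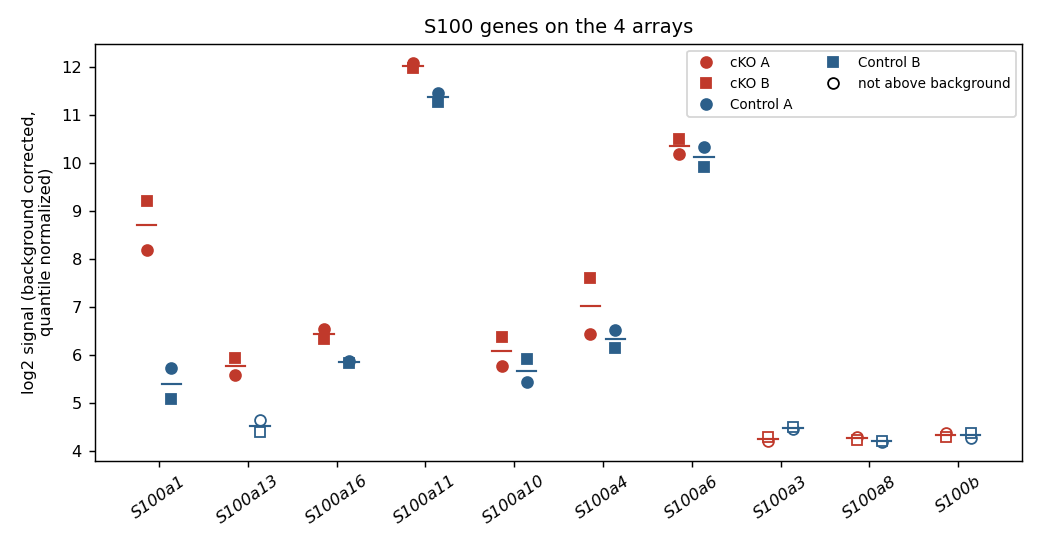
Log2 signal (background corrected and quantile normalized) of the 10 S100 genes on the vertical axis, with cKO lenses in red and Control lenses in blue. Circles are lens A, squares are lens B, bars are group means (n = 2) and open symbols are values not above background. Both cKO lenses lie above both Control lenses for S100a1, S100a13, S100a16 and S100a11, and the groups overlap for S100a10, S100a4 and S100a6. Heights are not comparable between genes, as each has its own probe.

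Of the other 9 genes, 6 passed the detection filter and were tested. S100a11 and S100a16 were called elevated among the 5 that were above background on all 4 arrays. S100a13 was called too, but it was not above background in either Control lens and passed the filter only through the cKO arrays, so it is given apart as a bound. A gene was called where limma's Benjamini-Hochberg adjusted p over all genes was under 0.05, the log2 fold change passed 0.58 and the mean log2 signal passed 4.6. Over all genes tested, 6.02% were called elevated and 5.64% reduced, and among the 9024 genes above background on all 4 arrays 6.03% were called elevated. None of the 5 was called reduced by limma, also at an unadjusted p under 0.05. All 5 had a log2 fold change above 0, as did 48.1% of the 9024 genes. In S100a11 and S100a16 both cKO lenses lay above both Control lenses, which held for 31.1% of the 9024 genes. Over all genes tested, 32.6% had both cKO lenses above and 29.7% had both below. The median log2 fold change of the 5 was 0.58, against -0.02 over the 9024 genes. With Control B left out, none of the 6 was called. With cKO B left out S100a13 could not be tested, and none of the others was called.

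S100a13 encodes a protein that takes part in the release of fibroblast growth factor 1 and interleukin 1 alpha, which leave cells without a signal peptide. Its unnormalized intensity was 86.1 and 109.6 in cKO A and B, and 53.9 and 43.4 in Control A and B. The probe exceeded background on the cKO arrays alone, a pattern shown by 6.62% of all genes tested. Under the reported processing the signal was therefore at least 2.04-fold higher in the cKO lenses (limma adjusted p = 0.0115). This p was fitted on Control values that were not above background, for a gene that passed the filter only through the cKO arrays, and it is no support for the rise. This bound sets the cKO mean against the lowest signal that was above background on each Control array, or the probe's own signal where that was higher. The measured means were 5.77 and 4.53 on the log2 scale. With no background correction the log2 fold change was 0.59, which lies below the bound, so the bound depends on the processing. Without Control B the gene was not called (limma adjusted p = 0.0596), and without either cKO lens it could not be tested. Fgf1, the growth factor released with S100a13, had a log2 fold change of 0.39 and was not called (limma adjusted p = 0.171). Its log2 signal in Control B, at 4.38, was near background.

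S100a11 encodes calgizzarin, which binds annexins at membranes and has been tied to membrane repair and keratinocyte growth arrest. Its probe read 5469.6 and 5555.9 in cKO A and B, against 2440.8 and 1680.7 in Control A and B. The log2 signals were 12.08 and 11.97 in the cKO lenses and 11.47 and 11.27 in the Control lenses, so the groups did not overlap. The log2 fold change was 0.66 ± 0.15 (SE, n = 2 a group), or 1.58-fold (limma adjusted p = 0.0337). S100a11 lies apart from the main cluster on chromosome 3. Its call was kept without Control A (adjusted p = 0.0411) and lost without cKO A (0.154), cKO B (0.151) or Control B (0.117), while the fold change stayed between 0.56 and 0.75.

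S100a16 encodes a widely expressed member with 1 poorly conserved EF-hand. The probe read 145.6 and 137.6 in cKO A and B, and 82.1 and 67.3 in Control A and B. The log2 signals were 6.55 and 6.35 in the cKO lenses, and the 2 Control lenses were nearly equal at 5.88 and 5.85. The log2 fold change of 0.5848 ± 0.14 (SE, n = 2 a group, limma adjusted p = 0.0447) exceeded the fold threshold by less than 0.01. S100a16 was called in none of the 4 fits that left out a lens, with adjusted p-values from 0.0697 to 0.235.

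S100a4, S100a6 and S100a10 were above background on all arrays, and none of them was called. S100a4 encodes a protein that binds non-muscle myosin and marks migrating and mesenchymal cells. Its unnormalized intensity was 136 in cKO A, 300.5 in cKO B, 109.2 in Control A and 75.9 in Control B. On the log2 scale cKO A, at 6.44, lay below Control A, at 6.52, and only cKO B, at 7.61, stood above both Control lenses. The log2 fold change was 0.68 ± 0.36 with a 95% interval from -0.16 to 1.53 (limma adjusted p = 0.234). It was 0.10 without cKO B, and 1.25 without cKO A, where S100a4 was called (adjusted p = 0.0283). Myh9, which encodes the myosin heavy chain bound by S100a4, had a log2 fold change of -0.0042 (adjusted p = 0.986).

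S100a6 encodes calcyclin, named for its link to the cell cycle, and S100a10 encodes p11, which holds its active shape without calcium and forms a tetramer with annexin A2. S100a6 had log2 signals of 10.20 and 10.50 in cKO A and B and of 10.33 and 9.92 in Control A and B. Its log2 fold change was 0.22 ± 0.19 with a 95% interval from -0.23 to 0.67 (limma adjusted p = 0.466), and it ran from 0.016 without Control B to 0.43 without Control A. Calcyclin binding protein, Cacybp, differed by -0.04 on the same scale (limma adjusted p = 0.893), but it was above background in only 1 Control lens. S100a10 had log2 signals of 5.79 and 6.38 in cKO A and B and of 5.44 and 5.92 in Control A and B. Its log2 fold change was 0.41 ± 0.24 with an interval from -0.17 to 0.99 (adjusted p = 0.298), and it ran from 0.10 without cKO B to 0.69 without cKO A. For both genes 1 cKO lens lay inside the range of the Control lenses, and these intervals include rises as large as that of S100a16.

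S100a3, S100a8 and S100b were not above background on any of the 4 arrays. S100a3 is a protein of the hair cuticle, S100a8 forms calprotectin with S100a9 in neutrophils, and S100b is abundant in astrocytes and Schwann cells. Their unnormalized intensities ran from 40.6 to 50.2 for S100a3, from 36 to 44.7 for S100a8 and from 43.1 to 47.6 for S100b. No fold change is given for them.

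**Figure D2:**
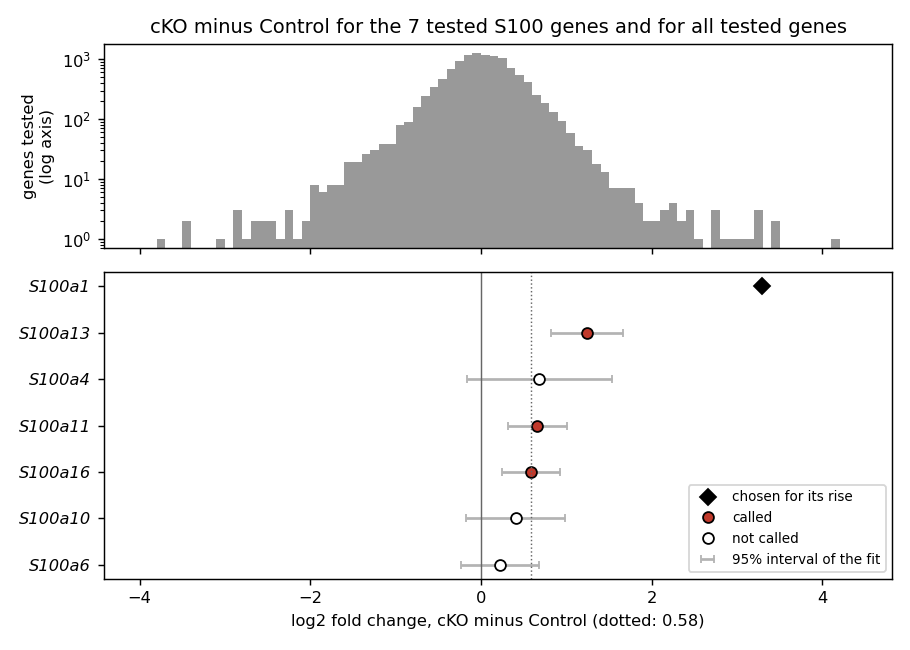
Lower panel, log2 fold change (cKO minus Control) of the 7 tested S100 genes, with the 95% interval of the limma fit for all but S100a1. Upper panel, histogram of the same quantity over all 11516 genes tested, with the number of genes on a log axis. The black diamond is S100a1, chosen for its rise. Red circles are the called genes, and the dotted line is the fold threshold of 0.58. S100a1 stands at 3.29, and the intervals of S100a4, S100a10 and S100a6 include 0. The value of S100a13 is fitted on Control signals that were not above background.

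In chromosomal order the cluster reads S100a1, S100a13, S100a14, S100a16, S100a3, S100a2, S100a4, S100a5, S100a6, S100a7a, S100a8 and S100a9. S100a1, S100a13 and S100a16 lay toward 1 end, but S100a14, which sits between S100a13 and S100a16, had a log2 fold change of -0.31 ± 0.15 and was not called (limma adjusted p = 0.202). S100a14 was the only one of 6 further S100 genes that was tested. The 3 nearest tested genes before the cluster, Chtop, Snapin and Ilf2, differed by 0.0049, -0.09 and -0.14 on the log2 scale, and none was called (adjusted p = 0.984, 0.667 and 0.585). The 3 nearest after it were Lor, Sprr2a1 and Lce1c, which belong to the epidermal genes beside the cluster. They differed by -0.27, 0.0094 and -0.15 and were not called either (limma adjusted p = 0.478, 0.99 and 0.578). Log2 signals ran from 4.33 to 5.08 for Lor and from 4.46 to 4.85 for Lce1c, and Sprr2a1 read 4.68 in Control B. The lowest signals above background were 4.56 to 4.76, so changes in these genes could be missed.

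**Figure D3:**
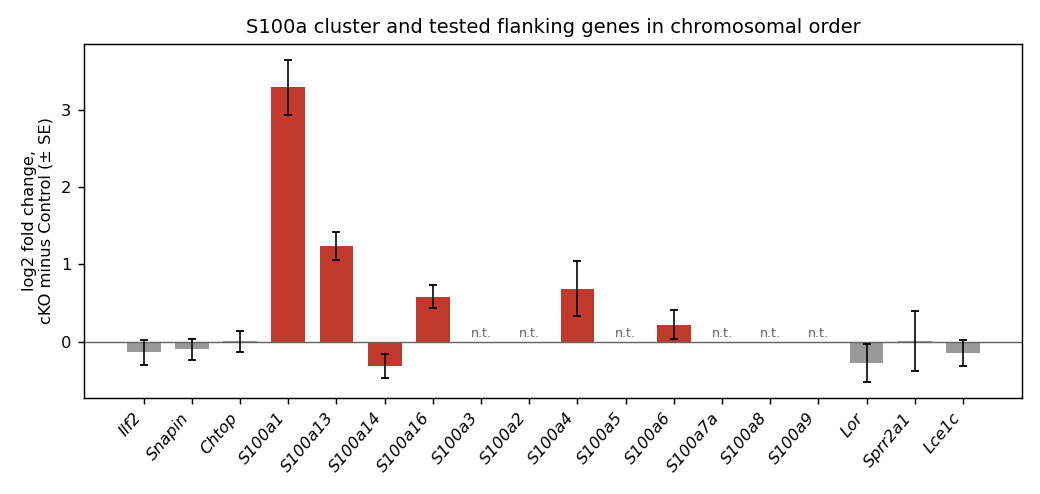
Log2 fold change (cKO minus Control, bars with SE) for the S100a cluster in red and for the 3 nearest tested genes on each side in grey, in chromosomal order and not to scale along the chromosome. The letters n.t. stand for genes not tested. S100a1 stands at 3.29 beside S100a13, whose bar is fitted on Control signals that were not above background. For S100a13 only a bound is given, of at least 2.04-fold under the reported processing. The 6 flanking genes lie between -0.27 and 0.0094, and the signals of Lor and Lce1c were near background.

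The annexins, calcium-dependent membrane-binding proteins that S100 dimers can bridge, had 6 of 12 genes tested. Anxa5 and Anxa2 were elevated and none was called reduced by limma, with 1 reduced at an unadjusted p under 0.05, a threshold passed in the direction of a fall by 15.1% of all genes tested and of a rise by 16.9%. Anxa2, the partner of S100a10, had log2 signals of 11.69 and 11.80 in cKO A and B and of 11.09 and 10.85 in Control A and B, a log2 fold change of 0.77 ± 0.15 (limma adjusted p = 0.0244). Anxa5, whose product binds exposed phosphatidylserine, had 9.05 and 9.57 against 8.09 and 7.74, a log2 fold change of 1.40 ± 0.22 (adjusted p = 0.014). Anxa1, a partner of S100a11, had 5.80 and 5.91 in cKO lenses and 6.84 and 6.25 in Control lenses. The Anxa1 difference of -0.68 ± 0.21 was not called (adjusted p = 0.0743). The median log2 fold change of the 6 annexins was 0.28, and 11.7% of all genes tested were called in either direction. The call of Anxa2 was lost without cKO A, cKO B or Control B, and that of Anxa5 without cKO B or Control B.

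Among 22 further binding partners and receptors of S100 proteins, 13 were tested and 1 was called elevated, against 6.02% of all genes tested. This was Atp2a2, the sarcoplasmic and endoplasmic reticulum calcium pump SERCA2 that S100a1 binds in muscle. Its log2 signal was 8.47 and 8.94 in cKO A and B and 7.77 and 7.68 in Control A and B. The log2 fold change was 0.98 ± 0.18 (limma adjusted p = 0.0225), a call not kept without cKO B or Control B. At an unadjusted p under 0.05, 5 of the 13 were elevated and none reduced, against 16.9% and 15.1% of all genes tested, but 2 of the 5, Plat and Trpv6, passed the filter only through the cKO arrays. The ryanodine receptor genes Ryr1 and Ryr2 did not pass the detection filter. Ager, the receptor for secreted S100 proteins, was not called (log2 fold change 0.22, limma adjusted p = 0.527). Its log2 signal in Control B, at 4.37, was near background.

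Of 29 other EF-hand genes, 19 were tested, 2 were called elevated and none reduced by limma, while at an unadjusted p under 0.05 there were 6 elevated and 2 reduced of the 19. Among the 6, Ncs1 and Chp1 passed the filter only through the cKO arrays, as did Calb2 among the 19. Over all genes tested the shares were 6.02% and 5.64% for calls and 16.9% and 15.1% at the unadjusted p. Calm2, 1 of the calmodulin genes, had a log2 fold change of 0.70 ± 0.15 (adjusted p = 0.0306). Ppp3r1, the regulatory subunit of the phosphatase calcineurin, also had 0.70 ± 0.15 (adjusted p = 0.0317). Of the 4 fits that left out a lens, 1 called Calm2 and 0 called Ppp3r1. Since S100a4 is also used as a mesenchymal marker, 18 mesenchymal genes were listed. Of these, 10 were tested. Tgfbi and Fn1 passed the filter only through the cKO arrays, so no test is given for them. Under the reported processing, Tgfbi was at least 2.83-fold and Fn1 at least 1.27-fold higher against the background of the Control arrays. With no background correction the log2 fold change of Tgfbi was 1.06. That of Fn1 was 0.22 with medians matched on the probes above background throughout. Both lie below these bounds, which thus depend on the processing. None of the other 8 was called. The filament gene Vim differed by -0.09 (adjusted p = 0.734). None of the 10 was reduced by limma, also at an unadjusted p under 0.05.

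The genes whose pattern over the 4 lenses was nearest to that of S100a1 were Fabp3, Hspb8, Thrsp, Gpnmb and Crhbp. Likeness was the root mean square difference between log2 signals after each gene was centred on its own mean. It was 0.271 for Fabp3, a fatty acid-binding protein of heart and muscle, 0.315 for the small heat shock protein gene Hspb8 and 0.316 for Thrsp, a gene of lipid synthesis. It was 0.393 for Gpnmb, a transmembrane glycoprotein gene, and 0.397 for Crhbp, which encodes a binding protein of corticotropin-releasing hormone. Fabp3 read 8.11 and 8.83 in cKO A and B and 5.17 and 5.23 in Control A and B. Gpnmb exceeded background on the cKO arrays alone. Among the S100 genes above background on all arrays, S100a4 was nearest to S100a1, at 1.31, and S100a6 farthest, at 1.56. These values rest on 4 lenses and describe the size of a difference as well as its shape, since the centred signals were not scaled.

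Across the series, the targeted gene Celf1 was reduced in the cKO lenses by 1.43 ± 0.19 on the log2 scale over 4 probes (limma adjusted p = 0.0099). Xist, which exceeded background on the cKO arrays alone, was at least 6.09-fold higher there under the reported processing. The Y-linked Ddx3y fell by 3.09 ± 0.55 (limma adjusted p = 0.0197). Ddx3y had log2 signals of 6.81 in cKO A and 4.82 in cKO B, both above background, and of 8.99 and 8.82 in Control A and B. The groups thus differed in sex-linked transcripts, and genotype and sex cannot be told apart for any value here. The cKO arrays had 16261 and 16925 probes above background and the Control arrays 14542 and 14180, so genotype also cannot be told apart from array brightness. Member probes were read on 22 to 45 beads, with a standard error of 2.69% to 12.1% for values above background. The number of arrays limits precision.

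Markers of other cells were set beside the S100 values. Of 11 lens fiber markers 9 were tested, Cryab among them, and 2 were called reduced. Dnase2b fell by 1.60 and Bfsp2 by 0.76 on the log2 scale (limma adjusted p = 0.0085 and 0.0228). At an unadjusted p under 0.05, 3 of the 9 were reduced and none elevated, and 1 of the 9 had a log2 fold change above 0. Over all genes tested, 5.64% were called reduced, 15.1% were reduced at the unadjusted p and 51.1% were above 0. Of 7 lens epithelial markers 5 were tested, and Foxe3 was called reduced, by 0.79 (limma adjusted p = 0.0177). At an unadjusted p under 0.05, 3 of these 5 were reduced and none elevated, and 1 of the 5 had a log2 fold change above 0. Beside S100a8, only Ltf of 8 neutrophil markers passed the filter, and it fell by 1.92 (adjusted p = 0.0043), while S100a9, Mpo and Elane were not above background on any array. Beside S100b, 2 of 8 glial markers were tested and Gfap fell by 0.81 (adjusted p = 0.0436). Of 9 macrophage markers 4 were tested, and all of these but Csf1r passed the filter only through the cKO arrays. Under the reported processing, Cd68 was at least 1.26-fold and C1qb at least 1.22-fold higher against the background of the Control arrays, with no test given. With medians matched on the probes above background throughout, their log2 fold changes were 0.15 and 0.16, which lie below these bounds. Csf1r, which was above background in both groups, had a log2 fold change of -0.11 and was not called (adjusted p = 0.639). The summed linear signal of the tested macrophage markers was 121 and 132 in cKO A and B and 95.1 and 95.5 in Control A and B, a difference that the filter favours since 3 of the 4 entered through the cKO arrays. Of 6 vessel markers, all tested, Emcn rose by 1.12 (adjusted p = 0.0178). The others were not called, at 0.58 for Cdh5, 0.53 for Cldn5, -0.06 for Pecam1, -0.26 for Tek and -0.59 for Kdr, and the summed signal of the 6 was 518 and 517 in cKO lenses and 430 and 407 in Control lenses. Of 10 striated muscle markers, set beside S100a1, 3 were tested and none was called by limma, also at an unadjusted p under 0.05, and their summed signal was 81.8 and 79.5 in cKO lenses and 73.7 and 90.4 in Control lenses. Of 5 blood markers 3 were tested, and Slc4a1 fell by 1.03 (adjusted p = 0.0115), while Hba-a1 and Hbb-b1 differed by -0.08 and 0.05 and were not called. Neither of the 2 tested pigment cell markers was called by limma, also at an unadjusted p under 0.05. The 1 retina marker that passed the filter did so only through the cKO arrays, and none of 6 cornea markers passed it. Without Control B the calls of Celf1 and of all these markers but Ltf were lost, without cKO B those of Bfsp2, Foxe3, Gfap, Emcn and Slc4a1, without cKO A those of Bfsp2 and Foxe3, and without Control A that of Gfap. Of the 8 alternatives of background correction and scaling, Foxe3 was called in 3 and Gfap in 2. The part of other cell types in the S100 values was not tested, and fewer cells of a type and less RNA per cell cannot be told apart in whole lenses.

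**Figure D4:**
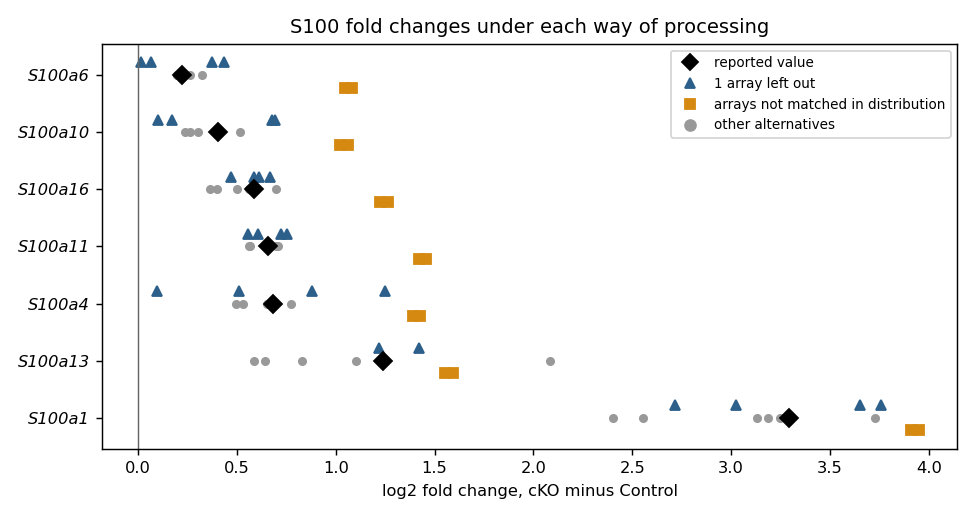
Log2 fold change (cKO minus Control) of the 7 tested S100 genes under each way of processing. Black diamonds are the reported values, blue triangles leave out 1 array, orange squares are unscaled arrays or arrays matched in their median alone, and grey circles are the other alternatives. Every value lies above 0, but S100a1 was chosen for its rise and S100a13 passed the filter only through the cKO arrays. S100a1 lies between 2.40 and 3.95, and S100a4 spreads from 0.10 to 1.25 when 1 array is left out. The values of S100a13 are fitted on Control signals that were not above background.

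The 5 members other than S100a1 that were above background on all arrays kept a log2 fold change above 0 under each alternative. S100a1 and S100a13 did too, but this is no support. S100a1 was chosen for its rise, and S100a13 passed the filter only through the cKO arrays. With the arrays unscaled or matched in their median alone, all 6 members other than S100a1 were called, but the median over all genes tested then moved to 0.57 and 0.53 on the log2 scale, and 5656 and 5273 genes were called elevated. Relative to the median of all genes, the values over the 8 alternatives of background correction and scaling ran from 0.58 to 0.89 for S100a11 and from 0.36 to 0.72 for S100a16. Of these 8, limma called S100a11 in 6 and S100a16 in 2. The relative range was 2.40 to 3.75 for S100a1, 0.49 to 0.86 for S100a4, 0.23 to 0.54 for S100a10 and 0.21 to 0.51 for S100a6. For S100a13, fitted on Control signals that were not above background, it was 0.58 to 2.11.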

How the data were processed

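RNA of 4 lenses was measured, 2 Celf1 cKO and 2 Control. Unnormalized intensities were deposited by the authors beside intensities normalized in the scanner's analysis software, with bead counts, bead standard errors and, per the file headers, a detection p-value that ranks each probe against negative controls. From these, 18 lines with shifted cells were left out. Unnormalized intensities were background corrected and quantile normalized with neqc of limma 3.58.1 (R 4.3.3, offset 16). Probes detected at p under 0.05 in at least 2 samples were kept (16262), log2 values were averaged per gene (11516 genes) and groups were compared with lmFit and eBayes, two-sided, and p-values were adjusted by Benjamini-Hochberg across the genes tested. The call rule needed an adjusted p under 0.05, a log2 fold change beyond 0.58 and a mean log2 signal over 4.6. The count-based test of the study's methods was not applied to intensities. The fit was tested on simulated data. Probes were named through RefSeq (GRCm38.p6) by Entrez identifier for 29586 probes, by accession for 2759, by symbol for 2214 and by older symbol for 2370, and 8334 kept the symbol of the files. The probe positions in the files name no build and are not printed. All 10 S100 genes and every listed gene called are named, up to 4 a list and direction, with the 5 genes most like S100a1 and 3 tested genes on each side of the cluster, and other listed genes given beside a member were added after their values were seen. The S100 genes, gene lists and tests were chosen with earlier results of these data known. Alternatives to the background correction, scaling, filter, probe summary, test and set of lenses were tried.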

Additional observations from a re-analysis of the deposited data

How the results depend on the processing

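The log2 fold changes of the 5 members other than S100a1 that were above background on all arrays stayed above 0 under each alternative. Those of S100a1 and S100a13 did too, which is no support, as S100a1 was chosen for its rise and S100a13 passed the filter only through the cKO arrays. The 3 calls among members other than S100a1, with S100a13 among them, and the 1342 calls among all genes, changed with the processing. In the deposited normalized table with low values set to 1, 0 members and 7 genes were called, and 1 member was called when 16 was added to its values. With no background correction 718 genes were called, and with an offset of 50, 789. With no detection filter 0 members and 207 genes were called, which tests more genes. A test against the fold threshold itself (treat) called 0 members and 83 genes. With the same median on each array 6 members and 5417 genes were called, and with no normalization between arrays 6 members and 5789 genes. With medians matched on the probes above background throughout, 2692 genes were called, and the median of all genes was then -0.19. The share of calls that were elevated moved with scaling, since 693 of 1342 were elevated in the reported fit, 5273 of 5417 with equal medians, 5656 of 5789 without normalization and 669 of 2692 with the median over detected probes. Leaving out 1 lens gave 0 to 2 called members and 163 to 1356 called genes, where a lone lens was assumed to vary like the other group. Without cKO B 0 members and 163 genes were called, without Control B 0 and 171, and without cKO A 1 and 594. The cause of these changes was not tested. The labels do not say whether the letters A and B pair lenses of the 2 groups. A minus B differences of both groups correlated at -0.01 across genes, which cannot decide this, as a pairing need not shift many genes. A fit with the replicate block called 3 members and 1675 genes. Members near background, such as S100a13 in Control lenses, are limited by signal over background.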
